A study of Mus musculus with 28 samples.

Results

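ERVL families are the class III endogenous retroviruses of the mouse genome, and their best known member is MERVL, the murine endogenous retrovirus with a leucine tRNA primer binding site. The families described here are the rows of the deposited repeat-family table with the class LTR and the superfamily ERVL. There are 70 of them among 539 repeat families, and each row pools all genomic copies of its family. The 70 families hold 110027 annotated elements.

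The cells were primordial germ cells (PGCs), from which sperm and eggs arise, sorted from mouse gonads at E13.5 (days of embryonic age) as cells positive for the surface antigen SSEA1. Their genotypes at Setdb1 were KO (delta/-), Het1 (delta/+), Het2 (flox/-) and WT (flox/+), in males and in females. RNA came from 2 KO, 4 Het (2 Het1 and 2 Het2) and 1 WT library per sex. H3K9me3 and H3K27me3 were each measured by ChIP-seq in 1 KO and 1 Het library per sex, and total H3 in 1 library of C57BL/6 male PGCs. The labels used here do not name the Cre line that made the delta allele, nor do they say whether libraries come from separate embryos or from pools, so the p-values measure only the spread between these libraries. In bulk RNA, more expressing cells and more RNA per cell cannot be told apart.

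SETDB1 trimethylates lysine 9 of histone H3 and is brought to many endogenous retroviruses by TRIM28 and zinc finger proteins. MERVL is known for a burst of transcription in the 2-cell embryo, which starts in its LTR, MT2_Mm, and runs through the internal region, MERVL-int. The factor DUX activates MT2_Mm together with 2-cell genes such as the Zscan4 cluster. MT2A, MT2B, MT2B2 and MT2C_Mm are related but older LTRs, and most other ERVL families are older still and shared with other mammals.

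Of the 70 families, 7 carry the name MERVL or MT2: MERVL-int (2599 elements), MERVL_2A-int (3762), MT2_Mm (2671), MT2A (14256), MT2B (16606), MT2B2 (3958) and MT2C_Mm (2010). The other 63 are 30 LTR families, 11 MER families, 10 MLT2 families, 6 rodent RMER and RLTR families, and 6 internal regions named ERVL or HERV. A mappability from 0 to 1, given by the authors without a definition in the sources used here, was 0.92 for both MERVL-int and MT2_Mm and 0.57 for MT2C_Mm. It was 0.08 to 0.22 for the rest of the MERVL and MT2 group and at most 0.08 in the other 63 families.

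ERVL RNA was scarce in these cells. Averaged over the 12 KO and Het libraries, the families ranged over 0.0584 to 0.707 RPKM (reads per kilobase of family, scaled to library size), with a median of 0.174 RPKM, against a median of 0.21 RPKM over all 539 families. MER68, an old LTR family, was the most abundant at 0.707 RPKM. It was followed by MLT2B5 at 0.575, HERVL40-int at 0.465, LTR50 at 0.455, LTR41B at 0.442, LTR33C at 0.413, MT2B at 0.406 and LTR40c at 0.399 RPKM. MERVL-int, at 0.315 RPKM, ranked 12th of the 70 families, and MT2_Mm, at 0.288 RPKM, ranked 15th.

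Setdb1 RNA was 27.1 and 31.2 RPKM in male KO libraries, against 37.5 to 52.1 RPKM in male Het libraries, and 34.65 and 31.3 RPKM in female KO libraries, against 38.2 to 58.9 RPKM in female Het libraries. The KO libraries lay below every Het library of their sex. The log2 difference of -0.54 (SE 0.13) did not pass the threshold over both sexes (limma adjusted p = 0.0783). The table gives 1 value for the whole gene, so it does not read the deleted part by itself.

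The repeat values carried a shift of whole libraries. The median RPKM over all 539 families ran over 0.2 to 0.26 in KO libraries and 0.13 to 0.31 in Het libraries. The Het libraries numbered replicate 1 stood at 0.13 to 0.16 RPKM and those numbered replicate 2 at 0.209 to 0.31 RPKM. KO libraries of either number overlapped. Among the 70 ERVL families, the highest library stood at a median of 2.63 times the lowest as deposited, and at 1.67 times once each value was divided by the median of its library. Changes are therefore given both as deposited and relative to the library median (median centring), because the centring moved the median log2 difference of all tested families by over 0.1.

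The question of the main comparison was which ERVL families changed in RNA when Setdb1 was lost. MERVL-int rose in KO PGCs. It had 0.42 and 0.372 RPKM in male KO libraries, against 0.20, 0.254, 0.15 and 0.253 RPKM in male Het libraries. In females it had 0.55 and 0.48 RPKM in KO libraries, against 0.19, 0.39, 0.20 and 0.32 RPKM in Het libraries. Every KO library lay above every Het library of its sex. The WT libraries had 0.204 RPKM in males and 0.33 RPKM in females, within the range of the Het libraries of their sex.

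As group means, MERVL-int averaged 0.396 ± 0.0339 RPKM in male KO libraries (SD, n = 2) and 0.214 ± 0.0497 RPKM in male Het libraries (SD, n = 4). Female KO libraries averaged 0.515 ± 0.0495 RPKM (SD, n = 2) and female Het libraries 0.275 ± 0.0968 RPKM (SD, n = 4). The log2 difference on the scale of log2(RPKM + 0.1) was 0.71 over both sexes (SE 0.20, limma adjusted p = 0.0244 across the 528 families tested). It was 0.67 in males (SE 0.28, limma adjusted p = 0.389) and 0.75 in females (SE 0.28, limma adjusted p = 0.291), and neither sex passed the threshold alone. The size depends on the pseudocount, as the family is at low RPKM: over both sexes it was 0.23 with 1 added and 0.91 with 0.01 added, and the call held with both.

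Dividing by the library median brought the Het libraries of MERVL-int close together. Its ratio to the library median was 1.62 and 1.70 in male KO libraries, against 1.33, 1.22, 1.15 and 1.18 in male Het libraries. In females it was 2.75 and 1.85 in KO libraries, against 1.36, 1.26, 1.25 and 1.28 in Het libraries. The WT ratios were 1.15 in males and 1.32 in females. Again no KO library overlapped the Het libraries of its sex. Among the KO libraries, female replicate 1 stood far above the others.

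After median centring the log2 difference of MERVL-int was 0.51 over both sexes (SE 0.073, limma adjusted p = 0.00233). It was 0.65 in females (SE 0.10, limma adjusted p = 0.00656) and 0.36 in males (SE 0.10, limma adjusted p = 0.281). The difference between the sexes was itself tested and did not pass, either as deposited (log2 0.08, SE 0.40, limma adjusted p = 0.95) or after centring (log2 0.29, SE 0.15, limma adjusted p = 0.993).

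MT2_Mm, the LTR that drives MERVL, moved in the same direction by less. It had 0.37 and 0.332 RPKM in male KO libraries, against 0.20, 0.246, 0.17 and 0.259 RPKM in male Het libraries. In females it had 0.39 and 0.38 RPKM in KO libraries, against 0.20, 0.38, 0.20 and 0.33 RPKM in Het libraries. Males did not overlap, while the lower female KO library equalled female Het1 replicate 2. As deposited the log2 difference of 0.45 over both sexes (SE 0.19, limma adjusted p = 0.218) did not pass the threshold.

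Relative to the library median, MT2_Mm stood at 1.42 and 1.52 in male KO libraries, against 1.33, 1.18, 1.31 and 1.21 in male Het libraries. In females it stood at 1.95 and 1.46 in KO libraries, against 1.43, 1.23, 1.25 and 1.32 in Het libraries. The groups did not overlap in either sex, although the lower female KO library exceeded the highest Het library by little. After centring the log2 difference was 0.25 over both sexes (SE 0.059, limma adjusted p = 0.0458). That call was held in 1 of the 12 centred fits that each left out 1 library, the one without female KO replicate 2, with adjusted p over 0.0048 to 0.16.

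**Figure D1:**
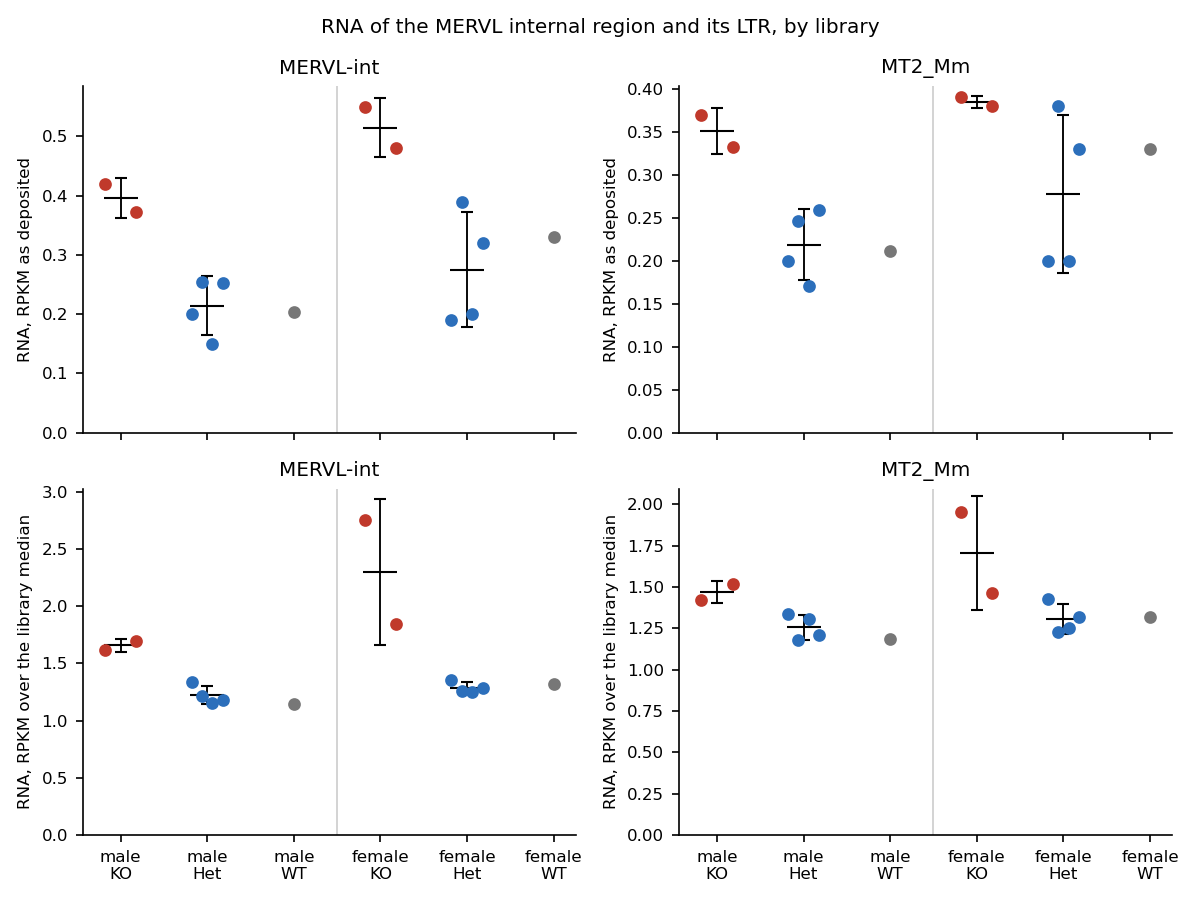
RNA of MERVL-int and MT2_Mm in each library, as RPKM (upper panels) and as RPKM over the median of all 539 families in that library (lower panels), with KO in red, Het in blue and WT in grey, and black bars for the mean and SD of groups with over 1 library. MERVL-int lies higher in all 4 KO libraries than in any Het library of the same sex on both scales, with female KO replicate 1 highest at 2.75 times its library median.

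The call of MERVL-int as deposited depended on single libraries. It missed the threshold without male KO replicate 1, male KO replicate 2, female KO replicate 1, female KO replicate 2, male Het2 replicate 1 or female Het2 replicate 1. Over the 12 fits that each left out 1 library the log2 difference was 0.65 to 0.78, with limma adjusted p of 0.00232 to 0.11. After median centring it passed in all 12 such fits, with log2 differences of 0.39 to 0.62 and limma adjusted p of 3.24e-05 to 0.0155.

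The internal region rose more than the LTR, which a ratio within each library shows without any scaling between libraries. MERVL-int over MT2_Mm was 1.14 and 1.12 in male KO libraries, against 1.00, 1.03, 0.882 and 0.977 in male Het libraries. In females it was 1.41 and 1.26 in KO libraries, against 0.95, 1.03, 1.00 and 0.97 in Het libraries. The WT ratios were 0.967 in males and 1.00 in females. The KO and Het libraries did not overlap in either sex, and they stayed apart when each RPKM was moved to the limit of its rounding: the lowest KO bound was 1.11 in males and 1.23 in females, against highest Het bounds of 1.05 in both sexes. This ratio was chosen after the values were seen and was not tested.

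RMER15-int and its LTR RMER15, another pair of internal region and LTR among these families, did not part in that way. Their ratio was 0.962 to 1.06 in male KO libraries, against 1.09 to 1.19 in male Het libraries. In females it was 0.923 to 1.05 in KO libraries, against 0.941 to 1.08 in Het libraries. The KO libraries lay below the Het libraries in males and overlapped them in females.

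**Figure D2:**
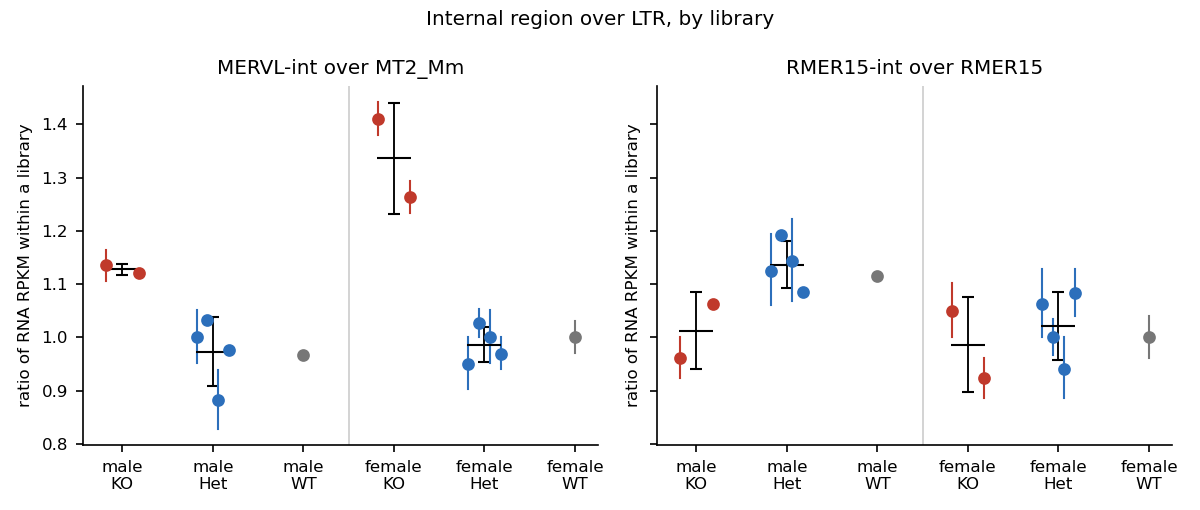
Ratio of the RPKM of an internal region to that of its LTR within each library, for MERVL-int over MT2_Mm (left) and RMER15-int over RMER15 (right), with KO in red, Het in blue and WT in grey. Coloured vertical lines span the rounding of the deposited values and black bars give the mean and SD; the MERVL-int ratio is 1.12 to 1.41 in KO libraries and at most 1.03 in Het libraries.

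The other MERVL and MT2 families did not pass the threshold on either scale. The closest relative of MERVL by name, MERVL_2A-int, had 0.40 and 0.332 RPKM in male KO libraries, against 0.21, 0.316, 0.22 and 0.316 RPKM in male Het libraries. In females it had 0.30 and 0.44 RPKM in KO libraries, against 0.25, 0.52, 0.30 and 0.42 RPKM in Het libraries. Its log2 difference was 0.19 as deposited (SE 0.20, limma adjusted p = 0.734) and -0.02 after centring (SE 0.048, limma adjusted p = 0.896).

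The older MT2 LTRs changed sign with median centring and with quantile normalization. As deposited their log2 differences were 0.14 for MT2A, 0.07 for MT2B, 0.15 for MT2B2 and 0.12 for MT2C_Mm. After centring they were -0.06 for MT2A, -0.13 for MT2B, -0.05 for MT2B2 and -0.08 for MT2C_Mm, with limma adjusted p of 0.226 to 0.73. MT2B is the most numerous of them. Relative to the library median it stood at 1.73 and 1.90 in male KO libraries, against 2.0, 2.12, 2.46 and 2.0 in male Het libraries, and at 1.70 and 1.77 in female KO libraries, against 2.21, 1.97, 1.94 and 1.92 in female Het libraries. The KO libraries of MT2B thus lay below the Het libraries in both sexes on that scale.

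Across all ERVL families the count of calls was small. Of the 70 families, 69 passed the filter on low values (RPKM 0.1 or more in at least 2 of 12 libraries), all but HERV16-int. As deposited 1 of the 69 rose over both sexes, against 36 of all 528 families tested, which is 6.82%. None of the 69 fell and none of the 528 did (0%). Quantile normalization gave another split, with 17 families higher and 5 lower, of which the 1 ERVL family was MERVL-int, higher. In males alone 0 of the 69 rose, against 13 of 528 (2.46%), and in females alone 0, against 10 of 528 (1.89%). Unadjusted limma p-values under 0.05 were found for 2 of the 69 families over both sexes, against 74 of 528 (14%). They were found for 5 of 69 in males, against 52 of 528 (9.85%), and for 1 of 69 in females, against 39 of 528 (7.39%).

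After median centring 2 of the 69 families rose over both sexes, MERVL-int and MT2_Mm, against 18 of 528 (3.41%), and 0 fell, as did 0 of all 528 (0%). In males 0 of the 69 rose, against 4 of 528 (0.758%). In females 1 of the 69 rose, MERVL-int, against 8 of 528 (1.52%). Unadjusted limma p-values under 0.05 on that scale were found for 7 of the 69 families over both sexes, against 73 of 528. They were found for 4 of 69 in males, against 29 of 528, and for 5 of 69 in females, against 63 of 528. Of the 36 families that rose as deposited, 25 were ERVK, the superfamily of IAP and ETn elements, and 0 were among the 84 MaLR families, the closest relatives of ERVL. Among all tested families MERVL-int ranked 18th by its log2 difference and MT2_Mm ranked 48th.

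The middle of the ERVL families followed the middle of all families. As deposited the median log2 difference was 0.18 over the 69 ERVL families and 0.17 over all 528 families. After centring the medians were -0.02 over ERVL families and -0.04 over all families. As deposited 67 of the 69 ERVL differences were above 0, against 511 of 528, and after centring 23 were, against 171 of 528. The 62 tested families outside the MERVL and MT2 group ran over -0.27 to 0.21 on the centred scale, all below MT2_Mm.

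**Figure D3:**
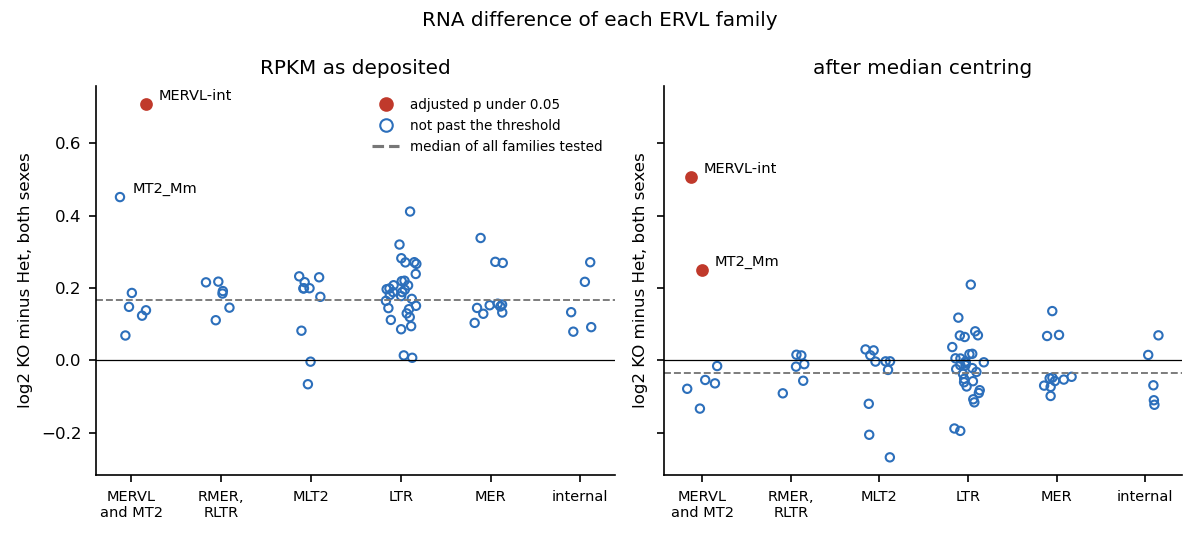
Log2 difference in RNA, KO minus Het over both sexes, of the 69 ERVL families tested, by group of families, as deposited (left) and after median centring (right). Filled red points passed an adjusted p of 0.05, open points did not, and the dashed line marks the median of all 528 families; MERVL-int at 0.71 and 0.51 lies above every other ERVL family in both panels.

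The order of KO and Het libraries was also counted, beside that of all families. As deposited both KO libraries lay above all Het libraries in 20 of 70 ERVL families in males, against 188 of 539 families (34.9%), and in 1 of 70 in females, against 50 of 539 (9.28%). MERVL-int was the 1 family of the 70 that did so in both sexes, against 37 of 539 (6.86%). Relative to the library median this held for 4 of 70 families in males, against 49 of 539 (9.09%), and for 3 of 70 in females, against 62 of 539 (11.5%). The opposite order, both KO libraries below all Het libraries, held on that scale for 5 of 70 in males, against 58 of 539 (10.8%), and for 9 of 70 in females, against 74 of 539 (13.7%). On that scale the first order, KO higher than Het, held in both sexes for 2 of 70, against 28 of 539 (5.19%). These 2 were MERVL-int and MT2_Mm.

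No abundant old family passed the threshold on either scale. MER68 had 0.85 and 0.736 RPKM in male KO libraries, against 0.48, 0.686, 0.50 and 0.697 RPKM in male Het libraries, but relative to the library median it stood at 3.27 and 3.36 in male KO libraries, against 3.20 to 3.85 in male Het libraries. In females its ratio was 3.05 and 3.08 in KO libraries, against 3.44 to 3.86 in Het libraries. The groups overlapped in males, and the KO libraries lay below the Het libraries in females. HERVL40-int, the internal region of an old ERVL, stood at 2.46 and 2.11 in male KO libraries, against 1.60 to 2.38 in male Het libraries, and at 1.90 and 2.23 in female KO libraries, against 2.16 to 2.64 in female Het libraries, and overlapped in both sexes.

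LTR41B was lower in KO libraries of both sexes relative to the library median, but not as deposited. As RPKM it averaged 0.424 in male KO libraries and 0.391 in male Het libraries, and 0.445 in female KO libraries and 0.50 in female Het libraries, with a log2 difference of 0.0072 over both sexes (SE 0.22). Relative to the library median it stood at 1.85 and 1.68 times the library median in male KO libraries, against 1.93, 2.33, 2.31 and 2.28 in male Het libraries. In females it stood at 2.0 and 1.88 in KO libraries, against 2.5, 2.19, 2.25 and 2.44 in Het libraries. The centred log2 difference of -0.19 (SE 0.063, limma adjusted p = 0.181) did not pass the threshold. MLT2B5 differed widely between the male KO libraries, at 1.77 and 3.25 times the library median, against 3.02 to 3.46 in male Het libraries, and stood at 2.30 and 2.23 in female KO libraries, against 2.55 to 3.19 in female Het libraries. Its log2 difference was -0.27 after centring (SE 0.10, limma adjusted p = 0.29) and -0.07 as deposited (SE 0.22, limma adjusted p = 0.824).

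LTR50, LTR33C and LTR40c did not part by genotype in both sexes. Relative to the library median LTR50 stood at 1.92 and 1.93 in male KO libraries, against 2.21 to 3.15 in male Het libraries, and at 2.25 and 1.77 in female KO libraries, against 1.68 to 2.88 in female Het libraries. LTR33C ran over 0.935 to 3.87 times the library median across the 12 libraries, the widest spread of the named families on that scale, and its highest RPKM was 2.0 times its lowest as deposited. LTR40c stood at 1.92 and 1.96 in male KO libraries, against 1.81 to 2.46 in male Het libraries.

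Of other contrasts within the cross, none singled out an ERVL family. No family passed in the female minus male difference of the KO effect, of 69 ERVL and 528 in all (0%), with 1 ERVL family, against 3 of 528, at an unadjusted p under 0.05. Female minus male among Het libraries gave 0 of 69 and 0 of 528 (0%), with 2 ERVL families, against 18 of 528, at an unadjusted p under 0.05. The comparison of the control genotypes, Het1 minus Het2, gave 0 of 69 and 0 of 528 (0%), with 0 ERVL families, against 1 of 528, at an unadjusted p under 0.05. MERVL-int differed by log2 0.11 between Het1 and Het2 (SE 0.28, limma adjusted p = 0.992). With Het1 alone as the control the KO comparison of both sexes called 0 ERVL families, and with Het2 alone it called 1.

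Markers of some other cells differed between these libraries, and WT did not always stand with Het. The summed RPKM of 5 Leydig cell markers was 26.9 to 56.1 in male KO libraries, against 3.42 to 5.32 in male Het libraries and 19.8 in the male WT library, and all 5 markers lay above the Het libraries. In females the sum was 5.61 to 6.08 in KO libraries, against 4.88 to 12.1 in Het libraries and 14.8 in the WT library. The sum of 3 stroma markers was 15.8 to 18.4 in male KO libraries, against 6.76 to 13.2 in male Het libraries and 15.4 in the male WT library. In females it was 23.5 to 25.0 in KO libraries, against 7.53 to 16.9 in Het libraries and 22.0 in the WT library. In each sex 2 of the 3 stroma markers lay above all Het libraries in KO. Over all 22138 genes, both KO libraries lay above all Het libraries in 1810 genes in males and in 2633 in females. Sums of Sertoli, endothelium, macrophage and erythroid markers overlapped between KO and Het libraries in males. In females the endothelium, macrophage and erythroid sums overlapped too. Of the 3 endothelium markers, 1 lay above all Het libraries in KO in each sex, Kdr. It had 6.23 and 4.46 RPKM in male KO libraries, against at most 3.07 RPKM in male Het libraries. In females Kdr had 10.73 and 6.84 RPKM in KO libraries, against at most 6.77 RPKM in Het libraries. Pecam1, the largest part of that sum, had 44.87 RPKM in male C57BL/6 PGCs and 3.77 RPKM in SSEA1-negative gonadal cells. The female Sertoli sum was 14.8 to 15.4 in KO libraries, against 8.92 to 14.3 in Het libraries and 16.9 in the WT library. Of the 4 Sertoli markers, 1 lay above all female Het libraries in KO. The sum of 8 germ cell markers was 1929 to 2107 in male KO libraries, against 1794 to 2251 in male Het libraries, and 899 to 1210 in female KO libraries, against 1298 to 1685 in female Het libraries. The SSEA1-negative gonadal library, a male C57BL/6 library outside the Setdb1 cross, had 674 for the Leydig sum, 509 for the stroma sum and 16.7 for the germ cell sum. The part of these cells in the ERVL values was not tested, and ERVL RNA of the gonadal library is not analysed here.

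The ChIP comparison asked whether ERVL families lost the mark that SETDB1 writes. With 1 library per sex and genotype there is no test, and a family was called where KO and Het differed by 2-fold in the same direction in both sexes at RPKM 0.5 or more. No ERVL family lost or gained H3K9me3 by that rule, and MERVL-int and MT2_Mm were the 2 of the 70 that reached the level. Of all 539 families 102 reached it, and 0 were lower (0%) and 0 higher (0%) in KO. At a level of 0.1 RPKM, which all 70 families reached, the count was also 0.

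H3K9me3 at MERVL was higher in the KO libraries than in the Het libraries. MERVL-int had 0.51 RPKM in the male KO library, against 0.37 RPKM in the male Het library, and 0.50 RPKM in the female KO library, against 0.45 RPKM in the female Het library. MT2_Mm had 0.50 RPKM in the male KO library, against 0.40 RPKM in the male Het library, and 0.54 RPKM in the female KO library, against 0.48 RPKM in the female Het library. These differences exceed the rounding of the deposited values to 2 decimals, but no replicate shows the spread between libraries.

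The direction was shared by most ERVL families, and by most other families at the same low level. H3K9me3 RPKM was higher in KO in 65 of 70 ERVL families in males, 57 of them beyond rounding, and in 56 of 70 in females, 46 of them beyond rounding. It was lower in KO in 1 of 70 in males and in 7 of 70 in females. Over all 539 families it was higher in KO in 390 in males and in 326 in females, of which 343 and 245 exceeded rounding. It was lower in KO in 117 of the 539 in males and in 153 in females. Among the 143 ERVK families, which hold many known SETDB1 targets, it was higher in 57 and lower in 73 in males, and higher in 40 and lower in 87 in females. The median log2 ratio of KO over Het in ERVL was 0.17 in males and 0.10 in females, against -0.03 and -0.08 in ERVK.

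These shares moved with the level of the mark in Het. In males the ERVL families had 0.09 to 0.40 RPKM in Het, and of the 320 families outside ERVL in that range 277 were higher in KO (86.6%), against 92.9% of ERVL families. In females the ERVL range was 0.12 to 0.48 RPKM, and 225 of 324 such families were higher in KO (69.4%), against 80% of ERVL families. Of the families outside ERVL above these ranges, 7 of 108 in males (6.48%) and 7 of 107 in females (6.54%) were higher in KO. ERVK families within the ERVL range were higher in KO in 55 of 70 in males (78.6%) and in 38 of 71 in females (53.5%). With 1 library per group, a change at ERVL and a difference between whole libraries cannot be told apart.

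**Figure D4:**
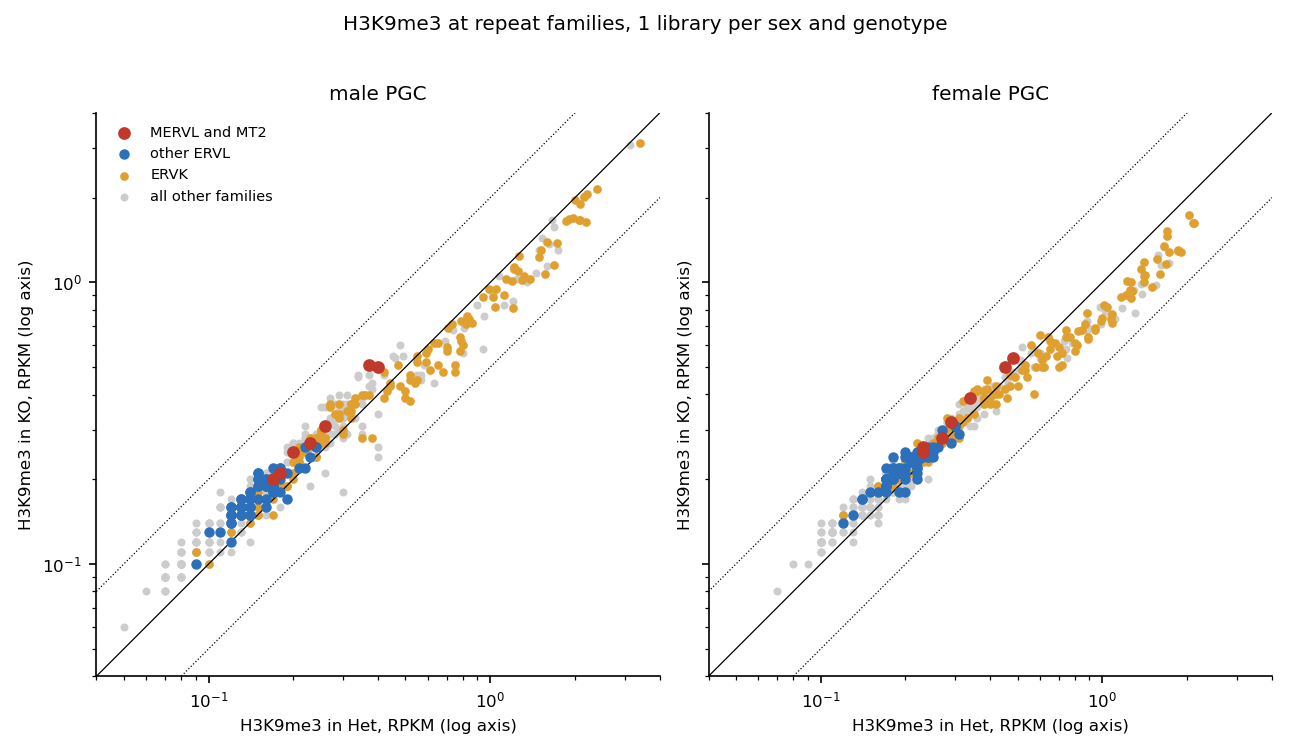
H3K9me3 RPKM of each of 539 repeat families in the KO library against the Het library, in males (left) and females (right), on log axes, with equality as a solid line and 2-fold differences as dotted lines. MERVL and MT2 families (red) lie above equality in both sexes, at up to 0.51 RPKM in male KO and 0.54 RPKM in female KO, as do most other families at the same low level, while most families above the ERVL range in Het lie below equality.

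Of the ERVL families, MT2_Mm and MERVL-int carried the most H3K9me3. Averaged over the male and female Het libraries MT2_Mm had 0.44 RPKM and MERVL-int 0.41 RPKM, followed by MT2C_Mm at 0.30, RMER10A at 0.275 and RMER15 at 0.27 RPKM. In all 539 families these levels ranked 110th for MT2_Mm and 115th for MERVL-int. Within the MERVL and MT2 group the lowest was MERVL_2A-int at 0.20 RPKM, and the Het mean was at most 0.275 RPKM in the other 63 families.

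Total H3 was nearly flat across these families, at 0.18 to 0.26 RPKM. H3K9me3 over total H3, with 0.1 added to each, was 2.03 in male KO and 1.57 in male Het for MERVL-int, and 1.76 in male KO and 1.47 in male Het for MT2_Mm. Over the 63 other families the median was 0.83 in male KO and 0.743 in male Het. The pseudocount sets these sizes: for MERVL-int in male Het the ratio was 1.81 with 0.01 added and 1.14 with 1 added. Across the 70 families the ratio in male Het rose with the mappability value (Spearman rho = 0.62 across families, and 0.59 without MERVL-int and MT2_Mm), and families are not independent replicates. As that value has no definition here, what it measures at these families is not known.

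H3K27me3, the Polycomb mark, was also highest at the same pair among ERVL families. MT2_Mm had 0.46 RPKM in the male KO library, against 0.42 RPKM in the male Het library, and 0.50 RPKM in the female KO library, against 0.43 RPKM in the female Het library. MERVL-int had 0.41 RPKM in the male KO library, against 0.39 RPKM in the male Het library, and 0.43 RPKM in the female KO library, against 0.39 RPKM in the female Het library. None of the 70 families reached 0.5 RPKM in both sexes, and of the 66 in all that did, 0 were lower (0%) and 0 higher (0%) by 2-fold in KO. In males 37 of 70 ERVL families were lower in KO and 9 higher, of which 20 and 4 exceeded rounding, against 361 (67%) and 59 (10.9%) of all 539 families. In females 7 of 70 were lower in KO and 59 higher, of which 2 and 38 exceeded rounding, against 129 (23.9%) and 367 (68.1%) of all 539 families. The common direction was thus opposite in the sexes over the whole table and not at ERVL families alone.

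Part of a list of genes active with MERVL in the 2-cell embryo, the Dub and Zscan4 genes, rose in the KO libraries. Of 38 listed names 24 are in the gene table, 2 of them at 0 in all 12 libraries, and 9 reached the filter of RPKM 1 in at least 2 libraries, most of them through the KO libraries. Over both sexes 7 genes of the list rose and 0 fell, against 137 of 13518 genes that rose (1.01%) and 4 that fell (0.0296%). The list was chosen with earlier results of these data known, and the filter admitted most of its tested genes through their KO values, so the count describes these genes and nothing is read from its size against the share of all genes.

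The largest was Dub3, a deubiquitinase gene, with 20.6 and 6.19 RPKM in male KO libraries, against 0.47, 0, 0 and 0 RPKM in male Het libraries, and with 12.1 and 7.59 RPKM in female KO libraries, against 0.21, 0.22, 0 and 0.05 RPKM in female Het libraries. Zscan4d, a zinc finger gene of the 2-cell stage, had 9.23 and 3.49 RPKM in male KO libraries and 1.75 and 3.23 RPKM in female KO libraries, and was listed at 0 in all 8 Het libraries. The KO libraries of both genes lay apart from the Het libraries in both sexes. The log2 differences on the scale of log2(RPKM + 1) were 3.37 for Dub3 (limma adjusted p = 1.19e-05) and 2.27 for Zscan4d (limma adjusted p = 4.40e-05). Both genes passed the filter only through their KO libraries, so nothing further is read from these p-values.

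The other 5 that rose were Dub1, Zscan4c, Zscan4e, Zscan4b and Dub1a, with log2 differences of 1.55, 1.37, 1.31, 1.22 and 0.93. In males 6 of the list rose, against 83 of 13518 genes (0.614%), and in females 3 did, against 54 of 13518 (0.399%). All of these genes passed the filter only through their KO libraries, and the list was chosen with earlier results known. Nothing is therefore read from these counts against the shares of all genes. None of the list fell in either sex, against 0 of 13518 genes in males (0%) and 1 in females (0.0074%). All 7 were listed at 0 in the SSEA1-negative gonadal library, which is male and from outside the cross. Zscan4 and Dub genes are clusters of near-identical copies, so reads could be split or shared between them. Arg2, an arginase gene, and Ddit4l, an mTOR inhibitor gene, the most abundant of the list outside these clusters, did not pass, at log2 0.32 (limma adjusted p = 0.556) and -0.04 (limma adjusted p = 0.963).

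Over all 24 genes, with no filter, both KO libraries lay above all Het libraries of both sexes in 12, against 531 of 22138 genes in the table (2.40%). At 0 in all 8 Het libraries and above 0 in all 4 KO libraries were 7 of the 24, against 41 of all 22138 genes. The list was chosen with earlier results known and its clustered copies could share reads, so nothing is read from these counts against all genes. Dux, the activator of MT2_Mm, was too low for the filter and is named after its values were seen. It had 0.73 and 0.20 RPKM in male KO libraries with each of the 4 male Het libraries listed at 0, and it had 0.30 and 0.24 RPKM in female KO libraries, against 0.06, 0, 0 and 0 RPKM in female Het libraries.

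**Figure D5:**
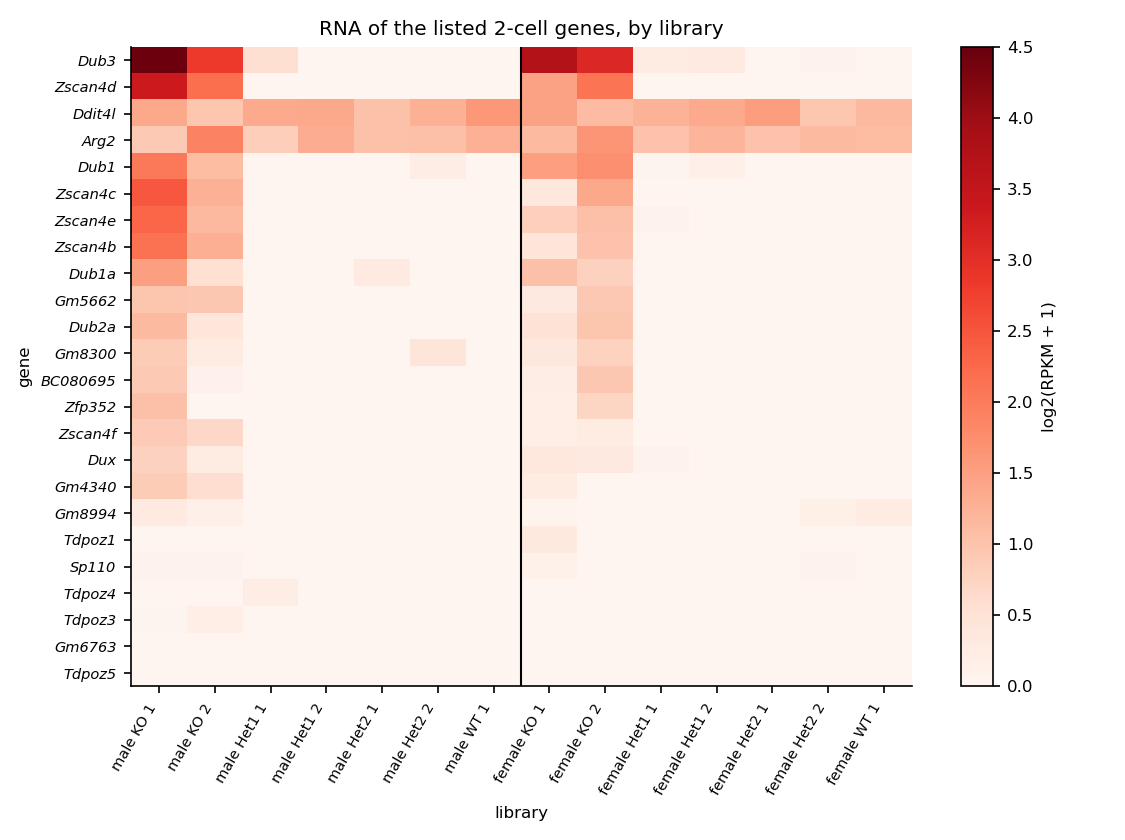
RNA of the 24 listed 2-cell genes in the gene table, one row per gene in order of mean level and one column per library, males left of the black line and females right of it, coloured by log2(RPKM + 1). The KO columns of both sexes hold the signal of the Dub and Zscan4 genes, with Dub3 highest at 20.6 RPKM, while Arg2 and Ddit4l have signal in Het columns too.

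The KO library with the most MERVL-int was not the one with the most Zscan4d. Female KO replicate 1 had the highest MERVL-int on both scales, 0.55 RPKM and 2.75 times the library median, and the lowest Zscan4d of the 4 KO libraries, 1.75 RPKM. Male KO replicate 1, with the highest Zscan4d of 9.23 RPKM, had the lowest MERVL-int ratio, 1.62, but as RPKM it had more MERVL-int (0.42) than male KO replicate 2 (0.372), whose Zscan4d was 3.49 RPKM. With 4 KO libraries no relation was tested.

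Genes known to restrain or activate MERVL did not pass the threshold. Of 32 names 33 rows were tested, since Atf7ip has 2. By limma 0 rose and 0 fell, against 137 (1.01%) and 4 (0.0296%) of 13518 genes. An unadjusted limma p under 0.05 was found for 3 rows. The share of all genes at that level is not given here, so nothing is read from the count of these 3 rows. These were Setdb1 and both rows of Atf7ip, a partner that stabilizes SETDB1, at log2 differences of 0.46 (limma adjusted p = 0.209) and 0.56 (limma adjusted p = 0.0976). Trim28, which recruits SETDB1, had 531 ± 150 RPKM in male KO libraries (SD, n = 2) and 545 ± 119 RPKM in male Het libraries (SD, n = 4), and 350 ± 42.0 RPKM in female KO libraries (SD, n = 2) and 351 ± 122 RPKM in female Het libraries (SD, n = 4). Dnmt1, the maintenance DNA methyltransferase, differed by log2 -0.10, Rif1 by -0.17, Dppa4 by -0.21, Hdac2 by -0.12 and Cbx5 by 0.12, with limma adjusted p of 0.663 to 0.869. Under median centring 1 of the 33 fell, Setdb1 itself, and the share of all genes on that scale is not given here.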

How the data were processed

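Reads were aligned to mm9 with BWA, per the submitters' processing notes; the sources used here give neither versions nor the read counter nor the treatment of reads with many matches. The deposited values are RPKM made by the authors, per the file headers, for genes and for repeat families pooled over copies; depth is unknown. The repeat table also gives the number of elements (a plain number deposited by the authors) and a mappability fraction, which the authors deposited without a definition.

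Families at RPKM 0.1 or more in at least 2 of 12 KO and Het libraries were tested on log2(RPKM + 0.1) with limma 3.58.1 (lmFit, eBayes with trend) in R 4.3.3, and genes at RPKM 1 or more on log2(RPKM + 1), as 4 group means with Het1 and Het2 pooled. Tests were two-sided, with Benjamini-Hochberg adjusted p under 0.05 over all features of a contrast. WT stayed outside the fits. ChIP calls were made by size on RPKM + 0.1. The scripts were tested on simulated data.

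Named families were all MERVL and MT2 families, any called, the 8 most abundant in RNA and the 5 highest in H3K9me3; named genes were list members that passed and up to 6 more by level. Members, lists and tests were chosen with earlier results of these data known. Consensus sequences of the families were not used here.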

Additional observations from a re-analysis of the deposited data

Results flagged for a closer look

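In a group of 4 Het libraries, a library was picked out when its gap to the nearest other as a share of the group's range exceeded Dixon's 95% critical value. Of 64 such groups examined for the 16 named families, 4 held one, and chance gives about 1 in 20. Relative to the library median, LTR41B in male Het1 replicate 1 (1.93) was below the other male Het libraries, and MER68 in male Het2 replicate 1 (3.85) was above them. Female Het1 replicate 1 was above the other female Het libraries for MT2A (1.21) and for MT2B (2.21).

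RMER10A, a rodent LTR family, had H3K9me3 in opposite directions in the sexes. It had 0.26 RPKM in male KO and 0.24 RPKM in male Het (log2 0.082), and 0.29 RPKM in female KO and 0.31 RPKM in female Het (log2 -0.072). The difference between the sexes was not tested, as each value is 1 library.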

How the results depend on the processing

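The count of ERVL families called over both sexes, 1 as deposited, was 0 with Het1 alone as the control, 2 with median centring, and 1 with pseudocounts of 1 or 0.01, no filter, a filter on the mean, quantile normalization, Het2 alone or WT counted with Het. Leaving out 1 library in turn gave 0 to 3, centred fits included. In females, 0 as deposited, it was 1 with quantile normalization or median centring and 1 to 2 in those fits without 1 library that changed it. In males, 0 as deposited, such fits gave up to 1. The female minus male difference of the KO effect gave 1 without female KO replicate 2 under centring. The replicate block gave 2 families over both sexes (MERVL-int and MT2_Mm), 2 in males (MERVL-int and MER73), 1 in females (MERVL-int) and 1 for female minus male in Het (MLT2F), and with median centring 2 over both sexes and 1 in females. Same-numbered libraries deviated together with correlations of -0.14 to 0.67, over 0.1 in 13 of 15 pairs of groups for families and 14 of 15 for genes. As not every pair did, and no label ties a number to a shared litter or day, the numbers were not taken as pairs, though most libraries of 1 number deviated together. Over all families the count of 36 was 9 with Het1 alone, 18 with centring, 22 with quantile normalization, 64 with the replicate block and 17 to 56 without 1 library.

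Signs turned for 5 families. With quantile normalization the log2 difference was -0.0064 for MERVL_2A-int, -0.064 for MT2A, -0.12 for MT2B, -0.021 for MT2B2 and -0.097 for MT2C_Mm. With median centring, with or without the replicate block, it was -0.016, -0.064, -0.13, -0.054 and -0.078 in the same order. Leaving out 1 library gave -0.018 (without female KO replicate 2) to 0.16 for MT2B. The listed genes called were 7, and 12 without a filter. H3K9me3 over total H3 at MERVL-int in male Het, 1.57, was 1.81 and 1.14 with pseudocounts of 0.01 and 1. ChIP calls were 0 in all 8 settings. Where a value moved, the cause was not tested. RNA in soma against PGCs at ERVL families was planned and is not analysed here. Values near 0.1 RPKM with 2 decimals limit what low families can show.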
